A study of Homo sapiens with 6 samples.

Results

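This account covers the 801 Brpf2 peaks on human chromosomes 4, 13 and 18, taken by chromosome alone from a list of 11874 peaks on 24 chromosomes. Chromosome 4 carried 418 of them, chromosome 13 carried 216 and chromosome 18 carried 167, together 6.75% of the list. The material came from chromatin immunoprecipitation and sequencing (ChIP-seq) in RKO, an established human colon carcinoma line grown without treatment in normal medium. The series holds 6 samples, which differ in what the antibody bound: Brpf2, the ING proteins ING2 and ING5, the mark H3K4me3, histone H3, or nothing specific (rabbit IgG). The Brpf2 peak list, from 1 library, was analysed, and the other 5 samples were not used here.

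Brpf2, also named BRD1, is a scaffold protein that holds together acetyltransferase complexes of the MYST family, with enzymes such as HBO1, and carries PHD fingers and a bromodomain that contact histones. ING proteins bind H3K4me3, and ING5 sits in such complexes. H3K4me3 marks the start sites of active genes, and gene-poor chromosomes have long intervals with few such sites. Chromosomes 4, 13 and 18 are textbook examples of gene-poor chromosomes, whereas 16, 17, 19 and 22 are gene-dense.

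The reference gene table matched the description as gene-poor. By RefSeq on GRCh38.p14, used only for the number of protein-coding genes on each chromosome, chromosome 4 had 770 genes, chromosome 13 had 338 and chromosome 18 had 270. Divided by the span between the outermost Brpf2 peaks, this gave 4.03, 3.52 and 3.55 genes per Mb, the lowest values among the 22 autosomes. The 4 gene-dense chromosomes together had 14.8 genes per Mb. All peak positions below are in hg18, counted from 1. No gene positions or sequence of hg18 were used, so peaks are not assigned to genes and no sequence is printed.

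Brpf2 peaks were equally thin on the 3 gene-poor chromosomes. Chromosome 4 had 2.19 peaks per Mb (exact Poisson 95% interval 1.98 to 2.41), chromosome 13 2.25 (1.96 to 2.57) and chromosome 18 2.20 (1.88 to 2.56). These 3 values differed by less than their counting error, and they were the lowest of the 22 autosomes, whose median was 3.83. Low density was not particular to them. Chromosome X, left out of the ranking, had 2.26 peaks per Mb (2.03 to 2.51) with 5.48 genes per Mb. Pooled, the 801 peaks spanned 363 Mb at 2.21 per Mb (2.06 to 2.36). Chromosomes 16, 17, 19 and 22 held 2404 peaks over 266 Mb, or 9.04 per Mb (8.68 to 9.41), which is 4.10 times the density (exact conditional binomial 95% interval 3.78 to 4.44). With 1 library there was no replicate, so no test between samples was possible. All intervals here cover counting error within this list, and neighbouring peaks are not independent. Where intervals are said to overlap, this does not show that the values are equal.

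**Figure D1:**
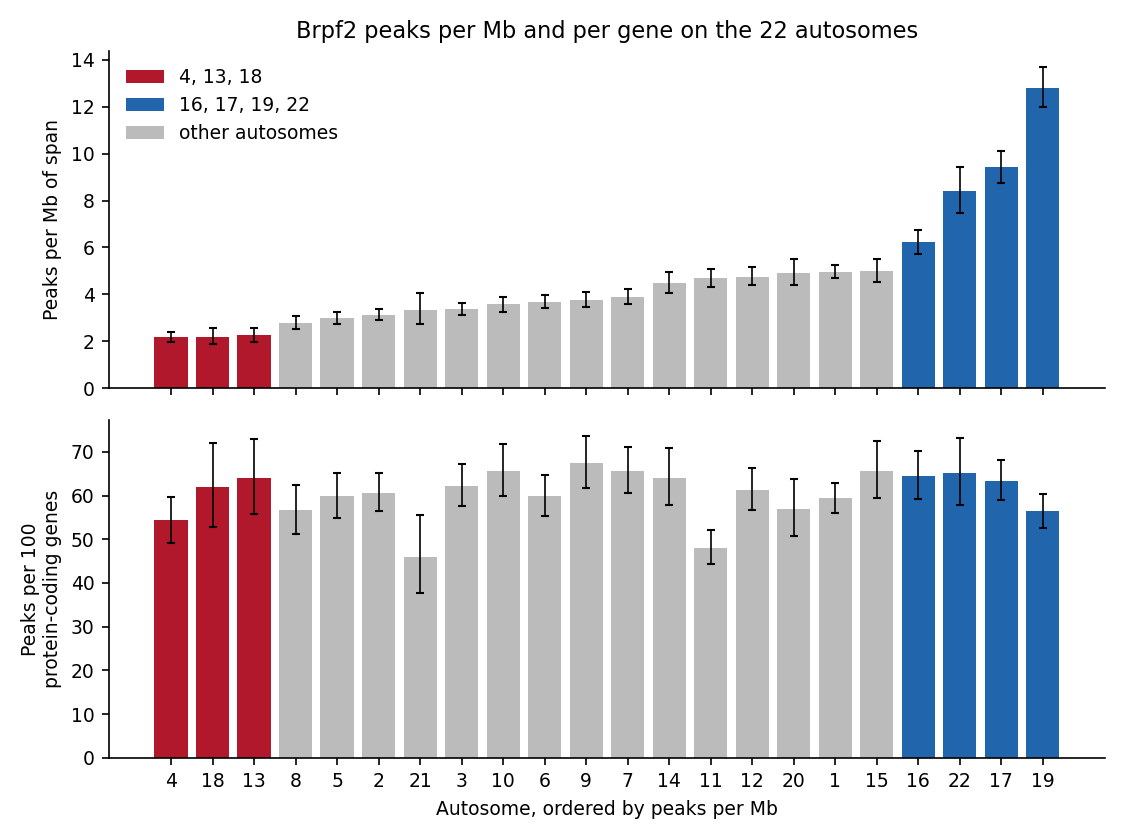
Brpf2 peaks per Mb of span (top) and per 100 protein-coding genes (bottom) on the 22 autosomes, ordered by peaks per Mb; bars are values, and whiskers are exact Poisson 95% intervals. Chromosomes 4, 18 and 13 are lowest per Mb at 2.19 to 2.25, but lie among the other autosomes per gene.

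The measure of length mattered for chromosome 13 alone of the 3. Its first peak began at position 18137268, whereas those of chromosomes 4 and 18 began at 113679 and 148048. When length was instead counted from position 1, chromosome 13 had 1.89 peaks per Mb, and chromosomes 4 and 18 both had 2.19.

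Counted per gene, the deficit was much smaller, and in the pooled comparison its interval included no difference. Chromosome 4 had 54.3 peaks per 100 protein-coding genes (95% interval 49.2 to 59.7), chromosome 13 63.9 (55.7 to 73.0) and chromosome 18 61.9 (52.8 to 72.0). Together they had 58.1 (54.2 to 62.3), against 61.2 (58.8 to 63.7) on the 4 gene-dense chromosomes. The ratio of these 2 values was 0.949 (0.875 to 1.03), an interval that includes 1. The pooled gene-dense value was lowered by chromosome 19, with 56.4 (52.6 to 60.4), whereas chromosomes 16, 17 and 22 had 64.5, 63.4 and 65.2. Each of these lies above the upper limit of the pooled gene-poor interval, though their own intervals overlap it. A ratio per gene without chromosome 19 was not computed, and the interval that includes 1 applies only with that chromosome counted. Chromosome 4 was the lowest of the 3 and ranked 3 from the bottom among autosomes, while chromosomes 13 and 18 ranked 8 and 11 from the top. The peaks covered 0.549% of the span of chromosome 4, 0.554% of chromosome 13 and 0.550% of chromosome 18, against 2.29% on the gene-dense chromosomes.

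Most of the span of chromosomes 4, 13 and 18 lay in long stretches without a Brpf2 peak. Stretches of 1 Mb or more between neighbouring peaks numbered 49 on chromosome 4, 22 on chromosome 13 and 19 on chromosome 18. They took up 63.2%, 62.5% and 61.8% of the span, the 3 highest shares among autosomes. Chromosome X had a similar share, 63.5%. On the gene-dense chromosomes together the share was 29.4%, from 31 stretches. Chromosome 16 alone reached 49.1%, and chromosomes 17, 19 and 22 lay between 15.9 and 23.9%. Stretches of 2 Mb or more numbered 37 on the gene-poor chromosomes and 10 on the gene-dense ones.

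The longest stretch on the gene-poor chromosomes was 11.5 Mb on chromosome 13, from 59871222 to 71337930. A peak with a score of 1396 stood on its left side and one with a score of 99.8 on its right. Chromosome 13 also held a stretch of 9.63 Mb from 81162769 to 90797063 and one of 7.31 Mb from 52324137 to 59635224. The last of these 3 ended shortly before the 11.5 Mb stretch began.

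Chromosome 4 had its longest stretches from 26472961 to 35921293 (9.45 Mb), from 130234808 to 139381656 (9.15 Mb) and from 57725622 to 66121429 (8.40 Mb). The third was bordered by weak peaks on both sides, with scores of 88.5 and 50.5. On chromosome 18 the longest stretches were shorter: 4.84 Mb from 22491599 to 27331333, 4.74 Mb from 59790286 to 64532049 and 4.01 Mb from 37790334 to 41800445. On the gene-dense side, chromosome 16 had 1 stretch of 13.4 Mb and chromosome 19 had 1 of 8.91 Mb. Thus single stretches were not longer on every gene-poor chromosome. Which parts of any stretch can be aligned to was not examined.

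On a grid of 1 Mb windows, 141 of 366 windows on the gene-poor chromosomes were empty, or 38.5% (Clopper-Pearson 95% interval 33.5 to 43.7%). Chromosome 4 had 39.6% empty windows, chromosome 13 38.1% and chromosome 18 36.4%, while chromosome X had 40.0%. On the gene-dense chromosomes 16.8% of windows were empty (12.5 to 21.8%). The filled windows also held fewer peaks, a median of 3 against 9. Windows with 10 or more peaks were 1.64% of all windows on the gene-poor chromosomes and 40.3% on the gene-dense ones, where they held 77.7% of the peaks. The low density therefore came with both more empty windows and fewer peaks in each filled one. At a fixed window size both depend on density, so they describe it and are not separate evidence. The same holds for stretches of a fixed least length.

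**Figure D2:**
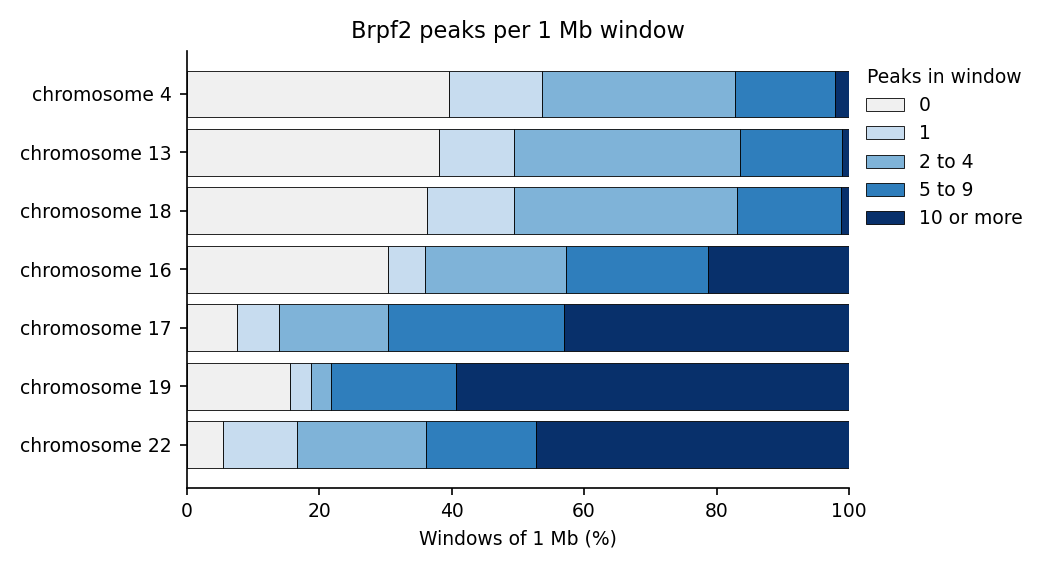
Share of 1 Mb windows (%) by the number of Brpf2 peaks whose midpoint they hold, for each gene-poor (4, 13, 18) and gene-dense (16, 17, 19, 22) chromosome. The 3 gene-poor bars look alike, with 36.4 to 39.6% of windows empty and 1.03 to 2.08% with 10 or more peaks.

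Density also varied along each gene-poor chromosome. Of the peaks on chromosome 4, 68 (16.3%) lay in the first 10 Mb, against 2 between 130 and 140 Mb and 4 between 60 and 70 Mb. The first 10 Mb held the 2 most crowded windows of that chromosome, with 16 peaks from 2000001 to 3000000 and 12 from 1 to 1000000. On chromosome 13, 49 peaks (22.7%) lay between 40 and 50 Mb and 39 between 20 and 30 Mb, whereas none lay between 60 and 70 Mb. Its most crowded windows were from 40000001 to 41000000, with 11 peaks, and from 20000001 to 21000000, with 9. On chromosome 18 the segment from 10 to 20 Mb held 36 peaks (21.6%) and that from 60 to 70 Mb held 4. Its window from 12000001 to 13000000 held 11 peaks, and that from 31000001 to 32000000 held 9.

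Neighbouring peaks were separated by a median of 135 kb on chromosome 4, 126 kb on chromosome 13 and 142 kb on chromosome 18. Pooled, the quartiles were 51.2 and 388 kb. The gene-dense chromosomes had a median of 38.5 kb and quartiles of 14.5 and 88.4 kb. The mean distance exceeded the median 3.39 times on the gene-poor and 2.81 times on the gene-dense chromosomes, so distances were skewed in both.

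The difference depended on the distance asked about. A neighbour within 100 kb, edge to edge, was found for 67.4% of the gene-poor peaks and 92.1% of the gene-dense ones, and within 10 kb for 14.5% (12.1 to 17.1%) and 31.5% (29.7 to 33.4%). Within 2 kb the shares were 7.99% (6.21 to 10.1%) and 9.11% (7.99 to 10.3%), with overlapping intervals. The gene-dense chromosomes differed among themselves, from 4.42% (2.38 to 7.44%) on chromosome 22 to 11.6% (9.50 to 14.0%) on chromosome 19. In counts, 64 of the 116 gene-poor peaks with a neighbour within 10 kb had it within 2 kb, against 219 of 758. How far such close peaks are single sites listed in parts was not tested.

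**Figure D3:**
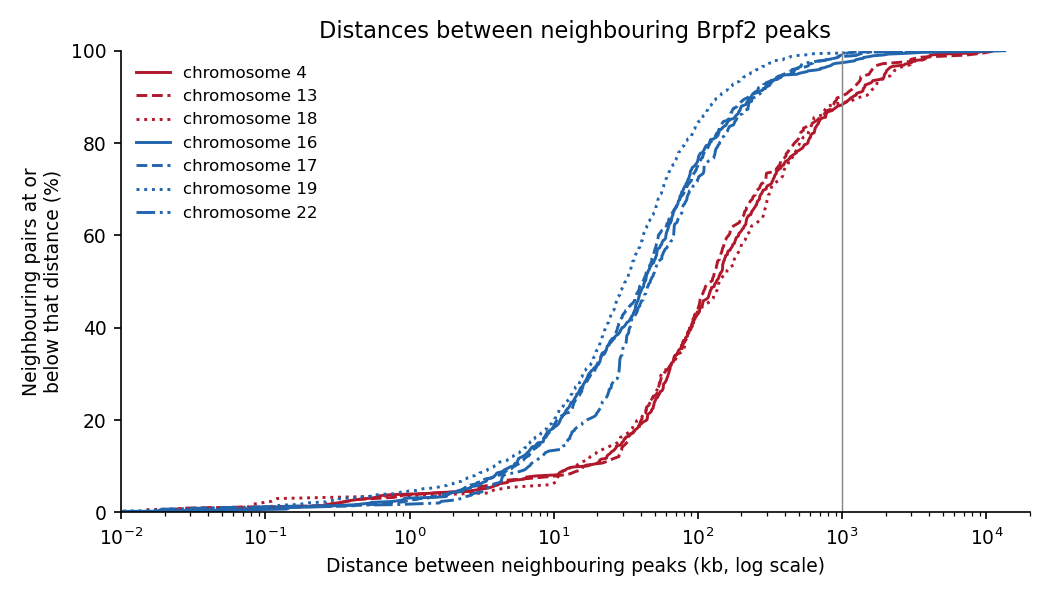
Cumulative share (%) of neighbouring peak pairs by the distance between them (kb, log scale), 1 line per chromosome; the vertical line marks 1 Mb. The gene-poor chromosomes (red) run close together with medians of 126 to 142 kb, to the right of the gene-dense ones (blue, 31.5 to 46.7 kb), while all lines lie close together below about 2 kb.

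Islands, defined as runs of at least 5 peaks each within 100 kb of the next, were scarce. Chromosome 4 had 7, chromosome 13 had 4 and chromosome 18 had 2, and these 13 islands held 82 peaks, or 10.2% (8.22 to 12.5%). On the gene-dense chromosomes 145 islands held 1683 peaks, or 70.0% (68.1 to 71.8%). The largest island on a gene-poor chromosome had 9 peaks, and none reached 10, whereas 68 gene-dense islands did. The largest of those, on chromosome 16 from 1919248 to 3276398, held 55 peaks. Since a fixed distance favours dense chromosomes, islands were also formed with each chromosome's own median distance. The shares then were 17.1% (14.6 to 19.9%) and 26.5% (24.8 to 28.4%), a much smaller gap. The intervals do not overlap, but they treat peaks as independent, whereas peaks enter islands at least 5 at a time. They are therefore too narrow to decide whether a gap remains.

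The largest island, on chromosome 4 from 2726220 to 3047422, held 9 peaks over 321 kb with 216 kb free on either side. Its scores ran from 110 to 3100 with a median of 320. The peak at 3100 was also its widest, from 2903351 to 2909417 (6067 bp), and the next by score, 2583.12, lay from 2932760 to 2936462. The remaining 7 scored 1264.23 or less.

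The island with the highest median score lay on chromosome 4 from 1654759 to 1845607, with 6 peaks over 191 kb. Here 4 of the 6 stood at or above 3100. They lay from 1681481 to 1685859, from 1691161 to 1695086 (3143.53, the top score of the chromosome), from 1826154 to 1829272 and from 1841261 to 1845607. The other 2 scored 630.78 and 590.21. In all, 4 of the 7 islands of chromosome 4 lay between 914453 and 3047422.

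The island on chromosome 4 from 81206535 to 81358523 differed in make-up. It held 7 peaks over 152 kb, and its neighbours were 1126 kb away on the left and 2152 kb on the right. It contained the 2 widest peaks of the chromosome, from 81206535 to 81214367 (7833 bp) and from 81322983 to 81330185 (7203 bp), both with a score of 3100. A peak from 81262836 to 81267117 scored 928.71. The other 4 scored 50.67, 62.24, 51.19 and 57.71, close to the lowest score of any peak on these chromosomes, 50.1, and were between 597 and 1246 bp wide.

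On chromosome 13 an island from 105826555 to 106019304 stood similarly apart, with 3528 kb free before it and 1645 kb after it. Its 5 peaks scored 230.44, 102.24, 52.39, 3100 and 3100 in order along the chromosome. The first of its 2 peaks at 3100, from 105980625 to 105987229 (6605 bp), lay 0.303 kb from the weakest one. The 2 larger islands of chromosome 13 held 8 peaks each, from 40393032 to 40785092 (median score 155) and from 112855438 to 113289638 (median score 613). In the former, 6 of 8 peaks scored below 200, and 1, from 40782913 to 40785092, reached 3100 with a width of 2180 bp.

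Chromosome 18 had an island of 8 peaks at its far end, from 75810606 to 76106588, which included the last listed peak of the chromosome. Its scores ran from 113 to 1079. The other, from 11839678 to 12066932, had 5 peaks scoring 59.7 to 1794. No peak of either island reached 3100, 0 of 13, which by a limit of 3 counts allows a share of up to 23.1%.

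**Figure D4:**
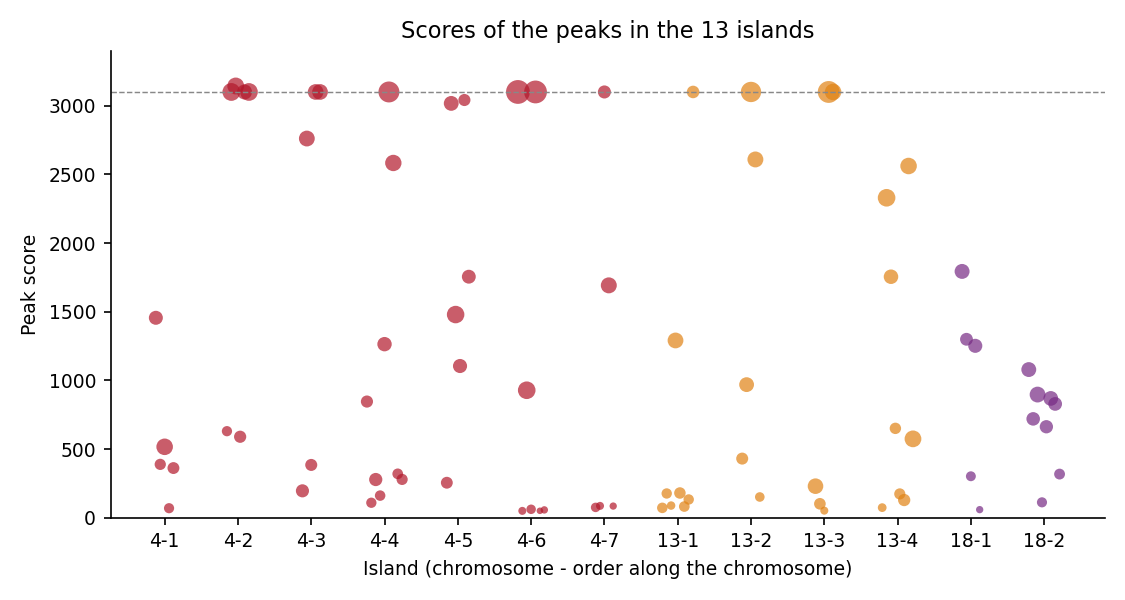
Scores of the peaks in the 13 islands of chromosomes 4 (red), 13 (orange) and 18 (purple), 1 point per peak with its area in proportion to width; the dashed line marks 3100. Most islands mix high and low scores, and 14 of the 82 points stand at or above 3100, none of them on chromosome 18.

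At the other extreme, 45 peaks, or 5.62% (4.13 to 7.45%), lay 500 kb or more from any other: 27 on chromosome 4, 10 on chromosome 13 and 8 on chromosome 18. On the gene-dense chromosomes this was 14 peaks, or 0.582% (0.319 to 0.975%). The isolated gene-poor peaks were not all weak. Their median score was 575 (95% interval from order statistics 319 to 737), against 772 (703 to 872) for the 674 peaks neither isolated nor in an island, intervals that overlap. Of the 45, 6 scored below 100 and 3 stood at or above 3100.

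The most remote peak of the 3 chromosomes, on chromosome 13 from 90797064 to 90801806, was 2.96 Mb from its nearest neighbour, and was strong and wide (score 2959.59, 4743 bp). The most remote peak of chromosome 4, from 66121430 to 66122402, was 1.97 Mb away from any other, with a score of 50.46 and a width of 973 bp. On chromosome 18 the most remote were 2 peaks that were each other's nearest neighbour at 2.15 Mb, from 35633375 to 35634534 with a score of 101.8 and from 37788925 to 37790333 with 154.20. Among the 16 peaks that were 1 Mb or more from any other, 3 of them on chromosome 18, scores ranged from 50.46 to 2959.59.

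Peaks on the borders of stretches of 1 Mb or more were compared with the rest of the same chromosomes. The 164 bordering peaks had a median score of 629 (540 to 758), and the other 637 had 784 (705 to 891). At or above 3100 stood 4.88% (2.13 to 9.39%) and 9.89% (7.68 to 12.5%). Both pairs of intervals overlap, and the differences themselves were not tested. On chromosome 18 the order of the shares was the other way round, with 8.57% of bordering and 6.82% of other peaks.

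The median width of Brpf2 peaks did not set the gene-poor chromosomes apart, while peaks under 1 kb took a larger share there than on the gene-dense ones. Chromosome 4 had a median width of 2439 bp (2347 to 2540), chromosome 13 one of 2172 bp (2051 to 2356) and chromosome 18 one of 2330 bp (2114 to 2516). Pooled, it was 2362 bp (2257 to 2446), against 2296 bp (2256 to 2344) on the gene-dense chromosomes. The intervals overlap, and without chromosome 19 the gene-dense median was 2390 bp, so the order turned. Peaks under 1 kb were 5.99% of the gene-poor peaks (4.45 to 7.87%) and 3.12% of the gene-dense ones (2.46 to 3.90%). By chromosome the share was 5.74 to 6.48% on the 3 gene-poor and 2.38 to 3.91% on the 4 gene-dense chromosomes, but intervals of single chromosomes overlap. Those of chromosomes 4 and 17, for instance, were 3.71 to 8.42% and 2.64 to 5.57%. On the 15 other autosomes the share was 4.09% (3.68 to 4.54%), which overlaps the pooled gene-poor interval. Among these, chromosome 5 had 7.02%, more than any gene-poor chromosome, and chromosome 21 had 6.36%. Peaks of 5 kb or more were 3.25% (2.13 to 4.72%) and 4.03% (3.28 to 4.90%).

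The widest gene-poor peak spanned 8771 bp, whereas the widest gene-dense one spanned 16455 bp. It lay on chromosome 18 from 27511589 to 27520359 and was followed on that chromosome by 3437036 to 3444501 (7466 bp) and 45266233 to 45273171 (6939 bp). On chromosome 4 the third widest, after the 2 in the island described above, lay from 122831888 to 122838526 (6639 bp). On chromosome 13 the widest were from 44044327 to 44051182 (6856 bp), from 99429424 to 99436077 (6654 bp) and the 6605 bp peak named above. All 9 had a score of 3100.

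The score is the value the authors' caller gave each peak. Its scale is not stated, and it was used only within this list. Scores pile up at 3100, so peaks at that value cannot be ordered by strength. On the gene-poor chromosomes 71 peaks stood at or above 3100, 8.86% (6.99 to 11.0%), where the whole list had 8.27%. Chromosome 4 had 36 such peaks, 8.61% (6.10 to 11.7%), chromosome 13 had 23, 10.6% (6.87 to 15.5%), and 12 were on chromosome 18, 7.19% (3.77 to 12.2%). On the gene-dense chromosomes it was 7.20% (6.20 to 8.30%). All of these intervals overlap, and each includes the value of the whole list.

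Of the 71 peaks, 67 scored exactly 3100 and 4 scored more. Chromosome 13 had 3 of the latter, from 44810931 to 44814779 (3182.52), from 26722590 to 26726282 (3135.49) and from 97425427 to 97429259 (3100.69). Just under the threshold lay 3077.82 on chromosome 13 and 3041.40 and 3025.81 on chromosome 4. The peaks at or above 3100 were widely spaced. From 1 to the next, the median distance was 2.18 Mb on chromosome 4, 2.16 Mb on chromosome 13 and 4.29 Mb on chromosome 18, with maxima of 23.8, 28.8 and 17.7 Mb. Per 100 Mb there were 19.6 on the gene-poor and 65.0 on the gene-dense chromosomes, 3.33 times as many (2.51 to 4.45).

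Median scores were higher on the gene-poor than on most of the gene-dense chromosomes. Chromosome 4 had 764 (636 to 880), chromosome 13 721 (575 to 921) and chromosome 18 738 (605 to 926), which ranked 4, 6 and 5 from the top among autosomes. Pooled, the median was 743 (657 to 824), against 530 (486 to 567) on the gene-dense chromosomes, whose interval does not overlap it. Chromosome 19 had the lowest median of the 4, 403, and without it the gene-dense value was 620 (565 to 660), which overlaps the gene-poor interval slightly. Chromosome 16, with 720 (640 to 817), did not stand apart from the gene-poor chromosomes. The 15 other autosomes had 649 (623 to 673), an overlapping interval, and chromosomes 8, 21 and 20 had higher medians than any gene-poor one, with 852, 815 and 782. Chromosome X, about as sparse in peaks as the gene-poor chromosomes, had a median of only 281 (253 to 344).

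At like width the difference in score was seen among peaks of middle width. Under 2 kb, the median score was 181 (153 to 223) for 290 gene-poor peaks and 175 (163 to 189) for 896 gene-dense ones, and none of either reached 3100. Between 2 and 3 kb it was 961 (838 to 1069) for 299 peaks and 651 (608 to 700) for 881, although their median widths were close, 2470 bp (2420 to 2522) and 2435 bp (2400 to 2460). The 15 other autosomes had 722 (704 to 744). Of these gene-poor peaks 3.34% (1.62 to 6.06%) stood at or above 3100, against 0.681% (0.250 to 1.48%) of the gene-dense ones and 1.31% (0.934 to 1.77%) of those on the other autosomes, whose interval overlaps the gene-poor one. Between 3 and 5 kb the medians were 1883 (1728 to 2141) and 1577 (1436 to 1745), with intervals that overlap slightly.

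By chromosome, peaks of 2 to 3 kb on chromosome 4 had a median score of 969 (821 to 1105), those on chromosome 13 one of 899 (725 to 1170) and those on chromosome 18 one of 1082 (732 to 1300). These ranked 3, 4 and 1 from the top among the 22 autosomes, and chromosome 21 ranked 2 with 991. Across the 22 autosomes, peaks per Mb and the median score of peaks of this width had a Spearman's rho of -0.58, and rho with the median score of all peaks was -0.60. With the median width it was -0.10, and with the share of peaks at or above 3100 it was -0.44. Chromosome X was not part of these correlations and went the other way. At 2.26 peaks per Mb its median score was 281, and 2.29% (0.992 to 4.45%) of its peaks stood at or above 3100. These are descriptions of 1 library, in which all chromosomes share depth and caller. Base composition, copy number and the local background that a caller may use also differ between chromosomes, and their part in the scores was not tested.

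Peaks were also compared at like crowding, the number of other peaks whose midpoints lay within 500 kb. With 1 or 2 others near, the median score was 832 (638 to 1028) for 197 gene-poor peaks and 357 (229 to 569) for 44 gene-dense ones. With 3 to 5 it was 805 (654 to 949) and 535 (432 to 652), from 318 and 160 peaks, intervals that only just miss each other. They overlapped in 7 of 8 alternatives, such as 765 (596 to 897) and 627 (537 to 705) with others counted within 200 kb. With 6 to 10 it was 675 (499 to 801) and 640 (546 to 721). Over 10 others were found near 34 gene-poor peaks, with a median of 910 (389 to 2081), and near 1705 gene-dense ones, with 502 (457 to 553). This class has no upper limit, so crowding is not matched in it. The fullest 1 Mb window held 16 peaks on the gene-poor and 39 on the gene-dense chromosomes. With no other peak near, 45 gene-poor peaks had a median of 575 (319 to 737) and 14 gene-dense ones had 333 (85.3 to 1892). The gene-poor median was the higher one in all 5 classes, but the intervals overlap with 0, 6 to 10 and over 10 others. Against the 15 other autosomes, with medians of 673 (604 to 722) and 687 (650 to 734) for 1 to 2 and 3 to 5 others, the intervals overlap too.

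**Figure D5:**
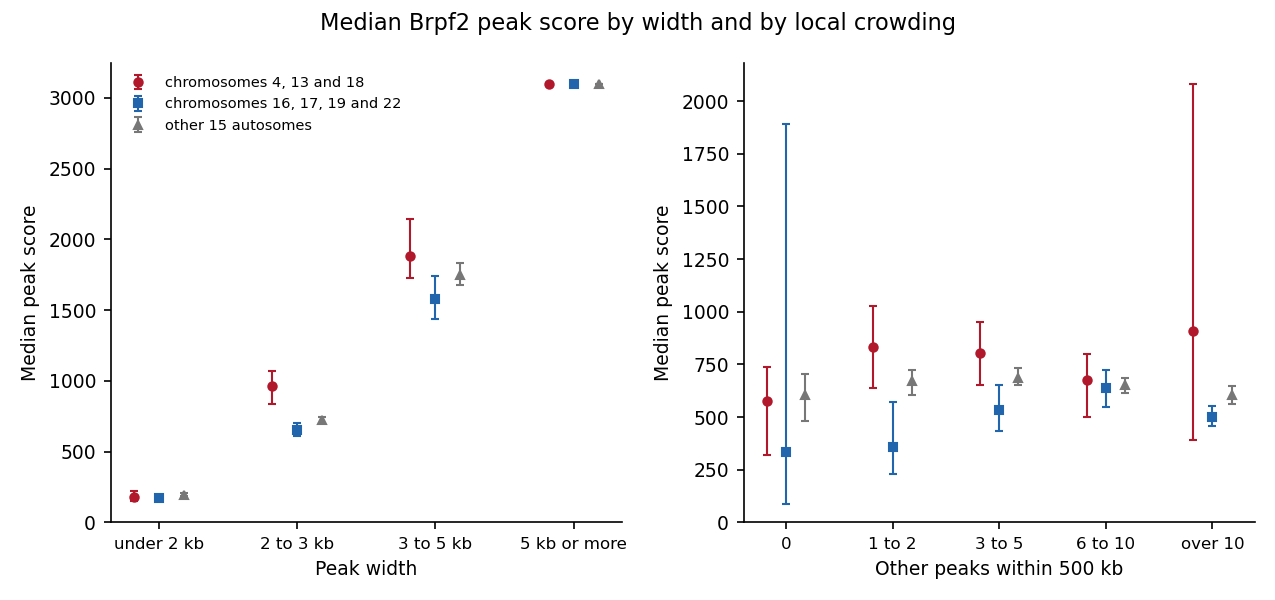
Median score of Brpf2 peaks by width (left) and by the number of other peaks within 500 kb (right) on the gene-poor chromosomes, the gene-dense ones and the 15 other autosomes; whiskers are 95% intervals from order statistics. Between 2 and 3 kb the gene-poor median, 961, lies above both others, and in the right panel the gene-poor median lies above the gene-dense one in each class, with overlapping whiskers at 0, 6 to 10 and over 10 others.

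Among the gene-poor peaks themselves, median scores by place had overlapping intervals, while the share at or above 3100 was higher in crowded places. Peaks in islands had a median of 657 (320 to 1105), and 17.1% of them (9.66 to 27.0%) stood at or above 3100, against 8.01% (6.08 to 10.3%) of the 674 peaks that were neither in islands nor isolated. These intervals overlap slightly. By crowding the share was 6.60% (3.56 to 11.0%) with 1 to 2 others within 500 kb and 20.6% (8.70 to 37.9%) with over 10. The latter came from 34 peaks, and these intervals overlap too. By chromosome the share in islands was 23.3% on chromosome 4, 15.4% on chromosome 13 and 0 on chromosome 18, from 43, 26 and 13 peaks.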

How the data were processed

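ChIP-seq peaks of 1 Brpf2 library in RKO cells were analysed. The deposited list, in hg18, gives chromosome, start, end, name and a score for each peak. The score is the value deposited by the authors from their peak caller, MACS by the prefix of the peak names. The submitters' processing notes list BWA, SAMtools, bedtools and hg18 but no versions. Settings of the caller and its control: not given in the sources used here. Read depth is unknown.

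Members and lists were chosen with earlier results of these data known. Densities used the span between the outermost peaks. Distances are edge to edge, and windows of 1 Mb start at position 1. Intervals (95%) were exact Poisson, conditional binomial, Clopper-Pearson or, for medians, from order statistics, computed with SciPy 1.17.1 on Python 3.11.15. Nothing was resampled, and no p-value was computed. Named regions were the top 3 by score and width, the 3 longest stretches, up to 3 largest islands, 2 fullest windows and the most remote peak per chromosome, while peaks within islands, all further islands, the 10 Mb segments, borders of stretches and width classes were chosen after values were seen. Code was tested on simulated data. Alternatives covered score and width filters, joining of peaks, lengths, window and island settings, and left-out chromosomes.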

Additional observations from a re-analysis of the deposited data

How the results depend on the processing

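Of 109 alternatives to 14 results, 74 kept the order of the gene-poor and gene-dense chromosomes and stayed within set limits. These were the counting interval or, for counts and the share of the span, 1.5 times. A further 29 moved beyond them and 6 turned the order. The cause of these changes was not tested, beyond what the settings themselves fix. Except for the density ratio, only the gene-poor value was held to these limits. Leaving out chromosome 19, which changes the gene-dense value, could therefore turn the order but not count as a move. For the median score it counted as unchanged, though the gene-dense value went from 530 to 620. With peaks at or above the median score of the list, the density ratio of 0.244 became 0.297, empty windows 49.0%, islands 2, their share of peaks 2.46%, peaks of 5 kb or more 5.80%, and, with 3 to 5 other peaks near, the median score 1335 (gene-dense 1283) and the share at or above 3100 16.4%. The ratio was 0.281 without chromosome 19 and 0.949 per gene. Without chromosome 4 there were 41 stretches of 1 Mb or more and 6 islands. Stretches numbered 167 from 500 kb and 37 from 2 Mb, the latter over 41.6% of the span. Windows of 500 kb were empty in 52.9% and windows of 2 Mb in 19.6%. Islands numbered 3 (1.87% of peaks) when joined within 50 kb, 36 (34.5%) within 200 kb and 22 (17.1%) within the median distance, 86 (40.2%) with at least 3 peaks and 0 (0%) with at least 10. Among peaks of 2 kb or wider the median score was 1321 and the share at or above 3100 was 13.9%, and the share above 3100 was 0.499%. Median width turned order: 2918 bp against 3034 bp above the median score, 2362 bp against 2390 bp without chromosome 19, and 2250 bp against 2296 bp without chromosome 4. With 3 to 5 other peaks near it did so at 2906, 2323 (without chromosome 19) and 2358 bp (others within 200 kb). No paired analysis was possible because 1 library was used. Depth is unknown, so how many weaker peaks were missed on sparse chromosomes cannot be estimated.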
